A study of Mus musculus with 15 samples.

Results

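Immediate early genes are the genes that a cell transcribes first after a stimulus, from factors already present and without new protein synthesis. The 10 described here were Fos, Fosb, Jun, Junb, Jund, Egr1, Ier2, Dusp1, Atf3 and Nr4a1. They were chosen by symbol, through the mouse Ensembl identifier of each row, out of 65964 entries in the table. All 10 were found, and all 10 were among the 17505 entries abundant enough to be tested. Expression was measured by RNA sequencing of mouse brain in 15 libraries, in TPM, a transcript abundance scaled to transcript length and to a fixed total per library.

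The animals were C57BL/6 mice, a common inbred laboratory strain. Every library, the untreated ones included, carries the label of a kainic acid (KA) induced model of temporal lobe epilepsy. KA activates kainate-type glutamate receptors and is used in rodents to provoke seizures. The 5 groups of 3 libraries were untreated (CTRL_L), treated with KA (KA_L and KA_H) and treated with KA and APOE (APOE_L and APOE_H). The labels define neither the letters L and H nor what was done with APOE, the gene name of apolipoprotein E. They give no time after KA and no age, and there was no untreated H group. Nothing in them ties the 3 libraries of a group to separate mice, and p-values therefore reflect the spread of these libraries, which could be technical. The study concerns lipid-laden reactive astrocytes and seizure activity, and the comparisons cover KA, the letter and APOE.

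Fos and Jun encode partners in AP-1, a transcription factor that binds DNA as a pair of proteins joined through leucine zippers. In brain, the transcripts of these genes rise within minutes of strong neuronal firing and decay soon after, which has made Fos and Egr1 common marks of recent activity. Microglia and other glia also induce them. Their promoters are switched on through CREB at cyclic AMP response elements and through serum response factor at CArG boxes, downstream of calcium and MAP kinase signals.

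Promoters are shown for Fos and Dusp1, which passed a test below and hold the core of the cyclic AMP response element near the start, and for Jun, which came next to the threshold beside Fos and holds only a looser pattern. They are from RefSeq (GRCm38.p6) and run 5′ to 3′ on the gene's strand. Capitals mark TGACG, the core of the cyclic AMP response element, on either strand, and TGANNTCA, an 8-base pattern that TGACGTCA, the full palindromic element, also matches. The Fos stretch lies at chr12:85473690-85473889 on the plus strand, the Jun stretch at chr4:95052223-95052422 on the minus strand, and the Dusp1 stretch at chr17:26508520-26508672 on the minus strand. The first 2 end 1 base before the annotated start and the Dusp1 stretch ends 48 bases before it. The start is that of RefSeq. In GENCODE 1 of 6 Dusp1 transcripts starts at that base, while the outermost one starts 53656 bases further upstream. Jund, which also passed a test, is not shown because its RefSeq start lies 1210 bases upstream of its 1 GENCODE transcript.
Fos: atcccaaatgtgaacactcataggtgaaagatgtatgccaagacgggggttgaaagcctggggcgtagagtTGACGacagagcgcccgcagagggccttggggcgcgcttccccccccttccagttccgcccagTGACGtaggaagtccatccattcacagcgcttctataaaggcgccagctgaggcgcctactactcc
Jun: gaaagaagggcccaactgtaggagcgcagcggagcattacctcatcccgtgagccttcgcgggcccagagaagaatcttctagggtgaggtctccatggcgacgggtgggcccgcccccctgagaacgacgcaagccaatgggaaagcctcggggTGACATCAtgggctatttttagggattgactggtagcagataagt
Dusp1: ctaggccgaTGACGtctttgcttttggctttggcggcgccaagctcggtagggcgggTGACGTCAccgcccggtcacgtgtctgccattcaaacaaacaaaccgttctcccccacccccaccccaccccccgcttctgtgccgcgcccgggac

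In the 250 bases before the start, with both strands searched, TGACG was present in 6 of the 8 members with a promoter in the RefSeq table (Fos, Fosb, Junb, Atf3, Nr4a1 and Dusp1). It was present in 17.8% of 32851 promoters of the same length. TGANNTCA was found in Jun, Jund and Dusp1, against 11.9% of promoters, and in Dusp1 it overlaps a TGACG match. GCGNGGGCG, the site bound by EGR1, was found in Fosb and Nr4a1, against 4.7%. Neither TGANTCA, the AP-1 site, nor the CArG box occurred in any of the 8 windows, against 6.75% and 1.47% of promoters. These are matches of letters in a short window, and nothing about binding was measured. Egr1 and Ier2 had no entry.

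The cell type markers in these libraries bear on every level that follows. All 18 microglia markers were at 1 TPM or more in each of the 15 libraries, with sums from 16711 to 59304 TPM. None of the 20 neuron markers reached 1 TPM in every library, and their sum was at most 95.5 TPM in any library. Slc32a1 was listed at 0 in all libraries, Gad1 was at most 0.02 TPM and Rbfox3 was listed at 0 in 13. Others were present more often, and 4 of the 20 passed the filter for testing. Syt1 reached 66.4 TPM and was listed at 0 in 3 libraries, and Celf4 reached 28.6 TPM and was listed at 0 in 1. Neuron marker sums were 5.15 to 20.7 TPM in KA_H and 14.1 to 40.8 TPM in APOE_H. They were 0.45 to 1.31 TPM in KA_L, 0.51 to 5.44 TPM in APOE_L and 23.45 to 95.5 TPM in CTRL_L. Choroid plexus markers moved with the letter. Their sum was 33307 to 41425 TPM in KA_H and 38531 to 59134 TPM in APOE_H, but 57.6 to 1281 TPM in KA_L and 126 to 297 TPM in APOE_L. In CTRL_L it was 140 TPM in library 1 and 39316 and 23979 TPM in libraries 2 and 3. Astrocyte marker sums were also higher in KA_H (912 to 1133 TPM) and APOE_H (1990 to 2563 TPM) than in KA_L (198 to 403 TPM) and APOE_L (198 to 300 TPM). The markers on that list were uneven. Clu reached 2021.5 TPM, and only Slc1a3 and Glul were at 1 TPM or more in every library. Gfap was at most 3.53 TPM and listed at 0 in 11 libraries, and Aldh1l1 at most 3.94 TPM and at 0 in 10. These sums are therefore no measure of astrocyte content. Neutrophil marker sums followed the letter too, at 272 to 1325 TPM in KA_H and 189 to 1298 TPM in APOE_H against 26.1 to 113 TPM in KA_L and 25.5 to 128 TPM in APOE_L. Few of the 10 markers made up these sums. Ly6g, Mpo and Elane were listed at 0 in all 15 libraries, and S100a8, S100a9 and Ngp at 0 in 11. Only Csf3r was present in every library, at 1 TPM or more, with 25.1 to 326 TPM. Border macrophage and monocyte markers (259 to 673 against 9.97 to 166 TPM) and red cell markers (384 to 4092 against 81.0 to 156 TPM) were higher in KA_H than in KA_L and overlapped between APOE_H and APOE_L. The part of these transcripts in the results for the immediate early genes was not tested. In bulk samples, fewer cells of a type and less RNA per cell cannot be told apart.

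Fos (ENSMUSG00000021250), the best known member of the AP-1 family, was the most abundant of the 10 by mean over the 15 libraries. It ranked among the most abundant transcripts of all. In the 6 libraries of CTRL_L and KA_L it held ranks between 42 and 68 of all entries. The CTRL_L levels were 1832, 1270 and 1590 TPM, and the KA_L levels 1830, 2480 and 2084 TPM. In KA_H they were 537, 706 and 520 TPM. APOE_L libraries held 1266, 1729 and 1214 TPM and APOE_H libraries 2016, 1144 and 834 TPM. The 3 KA_H libraries were thus the 3 lowest of the 15, at ranks 158 to 249, and did not overlap with any other group. By mean the order was KA_L (2131 ± 328 TPM, SD, n = 3), CTRL_L (1564 ± 282), APOE_L (1403 ± 284), APOE_H (1331 ± 613) and KA_H (588 ± 103). Neighbours in that order overlapped, except APOE_H and KA_H.

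Fosb (ENSMUSG00000003545) encodes a second FOS protein, whose truncated form is long-lived in neurons. Its level was well below that of Fos. The CTRL_L libraries held 213, 168 and 212 TPM, and those of KA_L 79.7, 103 and 372 TPM. It was 39.5, 99.9 and 76.3 TPM in KA_H, 117, 111 and 72.4 TPM in APOE_L, and 53.2, 97.7 and 49.5 TPM in APOE_H. The high KA_L mean (185 ± 162 TPM) came from library 3 alone. CTRL_L (197 ± 25.8 TPM) lay above all libraries of KA_H, APOE_L and APOE_H, and the 4 treated groups overlapped with one another.

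Jun (ENSMUSG00000052684), the main partner of FOS, was also lowest in KA_H. Levels were 477, 390 and 382 TPM in CTRL_L, 501, 593 and 740 TPM in KA_L and 181, 235 and 83.2 TPM in KA_H. In APOE_L it was 498, 420 and 286 TPM and in APOE_H 931, 346 and 414 TPM. KA_H was again below every library of the other groups. Its mean of 166 ± 76.9 TPM compared with 611 ± 121 in KA_L, 564 ± 320 in APOE_H, 416 ± 52.8 in CTRL_L and 401 ± 107 in APOE_L. These last 4 overlapped as neighbours, but each KA_L library was above each CTRL_L and APOE_L library.

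Junb (ENSMUSG00000052837) encodes a JUN protein that activates transcription less strongly than c-JUN. Its levels were low and varied within groups, from 36.6 to 96.9 TPM in CTRL_L, 23.5 to 54.5 TPM in KA_L, 18.6 to 64.9 TPM in APOE_L and 40.0 to 102 TPM in APOE_H. The KA_H libraries were close together at 35.7, 30.0 and 31.9 TPM. The highest mean was in APOE_H (69.3 ± 31.1 TPM) and the lowest in KA_H (32.5 ± 2.89 TPM), and all neighbours in the order overlapped.

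Jund (ENSMUSG00000071076), the JUN gene that is usually the most constant and least inducible, had the widest range of the AP-1 members as a ratio of group means, though not in TPM. CTRL_L libraries held 66.5, 37.0 and 44.4 TPM, and KA_L libraries 49.3, 75.6 and 105 TPM. It was 20.5, 17.6 and 20.0 TPM in KA_H and 15.7, 11.8 and 17.8 TPM in APOE_L. In APOE_H it was 223, 106 and 172 TPM. APOE_H (167 ± 58.6 TPM) was the highest group, with its lowest library just above the highest of KA_L (76.7 ± 28.1 TPM). KA_L overlapped with CTRL_L (49.3 ± 15.3 TPM). KA_H (19.4 ± 1.53 TPM) and APOE_L (15.1 ± 3.04 TPM) overlapped with each other and lay below all other libraries.

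Atf3 (ENSMUSG00000026628) encodes a stress-induced zipper protein that pairs with JUN proteins and often represses. It was 288, 226 and 48.2 TPM in CTRL_L, 92.4, 314 and 292 TPM in KA_L, and 171, 100.2 and 125 TPM in KA_H. It was 63.6, 151 and 129 TPM in APOE_L and 426, 328 and 236 TPM in APOE_H. The order by mean ran from APOE_H (330 ± 94.9 TPM) through KA_L (233 ± 122), CTRL_L (187 ± 124) and KA_H (132 ± 35.9) to APOE_L (115 ± 45.6), and all neighbours overlapped. APOE_H lay above all KA_H and all APOE_L libraries.

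Outside the zipper family, Egr1 (ENSMUSG00000038418) encodes a zinc finger transcription factor. It was 692, 302 and 402 TPM in CTRL_L, 328, 461 and 600 TPM in KA_L, and 184, 169 and 104 TPM in KA_H. It was 241, 345 and 178 TPM in APOE_L and 670, 707 and 428 TPM in APOE_H. KA_H (152 ± 42.6 TPM) and APOE_L (255 ± 84.2 TPM) were the lowest groups and overlapped by 1 library. KA_L (463 ± 136 TPM), CTRL_L (465 ± 203 TPM) and APOE_H (602 ± 152 TPM) overlapped with one another and lay above KA_H.

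Dusp1 (ENSMUSG00000024190) encodes a phosphatase that switches off the MAP kinases that induce these genes. After Fos it was the most abundant member by mean over the 15 libraries, and it was above Fos in APOE_H libraries 2 and 3. It was 1581, 865 and 748 TPM in CTRL_L, 651, 855 and 691 TPM in KA_L and 437, 385 and 385 TPM in KA_H. It was 573, 627 and 679 TPM in APOE_L and 1660, 1358 and 1003 TPM in APOE_H. The KA_H libraries (402 ± 29.9 TPM) were below all others, and APOE_H (1341 ± 329 TPM) was above all KA_L (733 ± 108 TPM), KA_H and APOE_L (626 ± 52.8 TPM) libraries. APOE_H overlapped with CTRL_L (1065 ± 451 TPM), whose first library stood apart from the other 2.

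Ier2 (ENSMUSG00000053560) encodes a small nuclear protein of the early response. Its levels were 523, 110 and 122 TPM in CTRL_L, 107, 272 and 154 TPM in KA_L, 173, 112 and 52.7 TPM in KA_H, 102, 113 and 115 TPM in APOE_L, and 298, 303 and 141 TPM in APOE_H. APOE_H lay above APOE_L, and all neighbours in the order of means overlapped. Nr4a1 (ENSMUSG00000023034), an orphan nuclear receptor, was near the limit of measurement in most libraries. Its median over the 15 libraries was 1.53 TPM, and it stood out in KA_L library 1 (68.9 TPM), APOE_H library 1 (46.2 TPM) and KA_H library 2 (12.9 TPM). The groups overlapped in all comparisons.

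**Figure D1:**
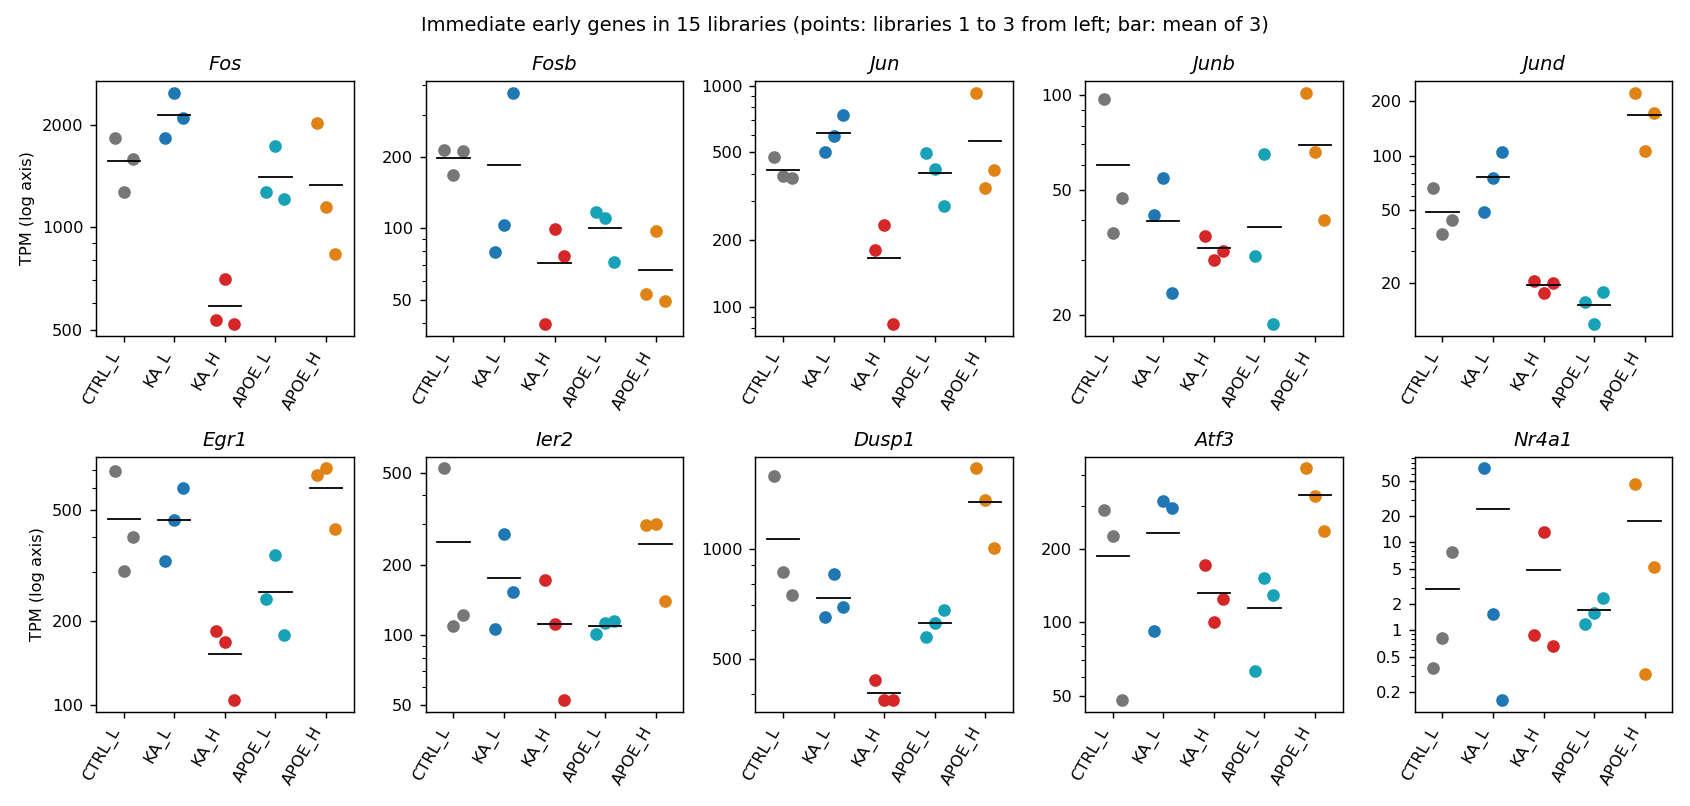
Levels of the 10 immediate early genes in TPM on log axes that differ between panels. Points are the 3 libraries of each group (1 to 3 from the left) and bars are group means. KA_H is the lowest group for Fos, Jun and Dusp1 with no overlap, and APOE_H is the highest for Jund.

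By group mean, KA_H was the lowest group for 5 members (Fos, Jun, Junb, Egr1 and Dusp1) and the highest for none. APOE_H was the highest for 5 (Junb, Jund, Egr1, Dusp1 and Atf3) and the lowest for Fosb. APOE_L was the lowest for Jund, Ier2, Atf3 and Nr4a1. The 10 transcripts together made up 0.426 ± 0.131% of all TPM in CTRL_L, 0.467 ± 0.0804% in KA_L, 0.168 ± 0.0249% in KA_H, 0.307 ± 0.0452% in APOE_L and 0.473 ± 0.157% in APOE_H (SD, n = 3). Fos and Dusp1 are the larger part of these sums.

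KA within the letter L was the comparison in which a seizure response of these genes would be looked for. No member passed the test between KA_L and CTRL_L. Tests were made with limma on log2(TPM + 1) over all 17505 entries with Benjamini-Hochberg adjustment and a threshold of 0.05, and 0.571% of entries passed. Without adjustment, 0 of the 10 members were under 0.05, against 11.1% of entries. Fos was 0.45 higher on the log2 scale (SE 0.32, limma adjusted p = 0.65), with a 95% confidence interval from -0.23 to 1.13. Egr1 differed by 0.04 (interval -0.95 to 1.03), Dusp1 by -0.47 (interval -1.19 to 0.25) and Fosb by -0.43 (interval -1.85 to 0.99). Groups did not overlap upward for Jun alone (1 of 10, against 6.27% of entries), at 0.54 (SE 0.48, limma adjusted p = 0.71). Of genes tied to neuronal firing outside the 10, Npas4, Egr4 and Cort were listed at 0 in all 15 libraries, Arc was at most 0.14 TPM, and Bdnf was listed at 0 in 12. None of the 3 activity-regulated genes that could be tested passed. They did not share a direction, so their median of 1.04, against 0 over all entries, is no summary of them. Homer1, which encodes a synaptic scaffold protein, was 0.45 ± 0.34 TPM in CTRL_L and 69.6 ± 87.2 TPM in KA_L, where library 3 held 167 TPM and library 2 41.2 TPM. Rheb, a GTPase that activates mTOR, was 171 ± 193 and 131 ± 147 TPM. Nrn1 was 0, 101 and 116 TPM in CTRL_L and listed at 0 in all KA_L libraries.

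Fos fell between KA_L and KA_H. The means of 2131 and 588 TPM differed 3.63-fold, and the log2 fold change was -1.86 (SE 0.32, limma adjusted p = 0.00974). Fos was the only member to pass (1 of 10, against 1.49% of entries). All 10 log2 fold changes were negative, with a median of -0.98 against 0.11 over all entries. Jun came next to the threshold, at -1.98 (SE 0.48, limma adjusted p = 0.051). Egr1 was at -1.60 (adjusted p = 0.11), Jund at -1.87 (0.22) and Dusp1 at -0.86 (0.25) by the same test. For Fos, Jun, Jund, Egr1 and Dusp1 every KA_H library was below every KA_L library, 5 of 10 members against 9.12% of entries. Microglia marker sums were higher in KA_H (38350 to 45208 TPM) than in KA_L (16711 to 28180 TPM). Not every marker in that sum moved with it. Csf1r, 1 of the 18, was 508 ± 198 TPM in KA_L and 251 ± 40.7 TPM in KA_H. Scaling each library to the sum was a setting chosen after seeing the data. It gave Fos a log2 fold change of -2.78 (limma adjusted p = 0.00448) and 4 called members, Fos, Jun, Egr1 and Dusp1. The Fos call was lost under 4 of 26 alternative settings. These were leaving out KA_H library 3 (-1.78, limma adjusted p = 0.061), no filter on low values (0.063), no mean-variance trend (0.20) and fitting the 2 groups alone (0.091). Among the 26, leaving out a library of CTRL_L, APOE_L or APOE_H could change the SE but not the fold change. The median of all entries depended on the scaling. It was 0.32 after upper-quartile scaling, where Fos was at -1.51, and -0.11 after quantile normalisation, where Fos was at -1.91. KA_H libraries had 13192 to 13635 entries at 1 TPM or more, against 9931 to 12085 in KA_L. Entries outside Ensembl, all of them assembled loci, made up 4.51 to 6.78% of TPM in KA_H and 11.4 to 12.1% in KA_L. With the TPM of Ensembl entries alone Fos was at -1.96 (limma adjusted p = 0.00759). Beyond that setting, the part of these differences in the Fos result was not tested.

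Between KA_H and CTRL_L, which differ in both treatment and letter, no member passed (0.377% of entries did). Without adjustment 5 members were under 0.05, against 10.5% of entries. Fos was at -1.41 (SE 0.32, limma adjusted p = 0.076), Dusp1 at -1.33 (SE 0.34, adjusted p = 0.12) and Egr1 at -1.56 (SE 0.47, adjusted p = 0.22). These values depended on the scaling. With upper-quartile scaling, which moved the median of all entries to 0.47, they were -0.81, -0.73 and -0.96. Fos passed with quantile normalisation (-1.67, limma adjusted p = 0.0499) and with a pseudocount of 0.1 (-1.41, 0.0475). In 7 of the 10 members every KA_H library was below every CTRL_L library, against 6.63% of entries. The median of the 10 was -1.29, against 0.10 over all entries. This comparison shares its KA_H libraries with the one against KA_L, so the values of both rest on the same 3 low libraries.

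The APOE condition was compared with KA within each letter. Within L no member passed, and 0.0457% of entries did. All 10 log2 fold changes of APOE_L against KA_L were negative, with a median of -0.62 against -0.04 over all entries. Without adjustment 1 member was under 0.05, Jund at -2.23 (SE 0.70, limma adjusted p = 0.39), against 7.84% of entries. Groups did not overlap downward for Fos, Jun and Jund, 3 of 10 against 5.52% of entries. Fos was at -0.61 with an interval from -1.29 to 0.07.

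Within H, Dusp1 rose from 402 to 1341 TPM, 3.33-fold, with a log2 fold change of 1.71 (SE 0.34, limma adjusted p = 0.0286). It was the only one of 10 members to pass, against 0.531% of entries. Jund was 8.60-fold higher by means at 2.98 (SE 0.70, limma adjusted p = 0.090) and Egr1 3.95-fold at 1.98 (SE 0.47, adjusted p = 0.094). Fos was at 1.09 (SE 0.32, limma adjusted p = 0.24) and Jun at 1.74 (SE 0.48, adjusted p = 0.20). Every APOE_H library was above every KA_H library for 7 members (Fos, Jun, Junb, Jund, Egr1, Dusp1 and Atf3), against 14.6% of entries. The median of the 10 was 1.26 and that of all entries 0.25. Microglia marker sums overlapped between these groups (38350 to 45208 TPM in KA_H, 38445 to 53283 in APOE_H), and so did choroid plexus sums, while astrocyte sums did not. Oligodendrocyte marker sums did not overlap either, at 17.15 to 27.9 TPM in KA_H and 65.8 to 107 TPM in APOE_H. Of those 14 markers, Mog, Olig2 and Ugt8a were listed at 0 in all libraries. The Dusp1 call was lost under 12 of 26 alternative settings, among them leaving out any KA_H library, APOE_H library 1 or 2, or APOE_L library 1, and fitting these 2 groups alone. Its value stayed between 1.35 and 1.90 over those settings, with adjusted p from 0.0144 to 0.471.

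Averaged over L and H, APOE against KA gave no called member, against 0.0171% of entries. Dusp1 alone was under 0.05 without adjustment, at 0.74 (SE 0.24, limma adjusted p = 0.41), 1 of 10 against 8.23% of entries.

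Jund rose between APOE_L and APOE_H, from 15.1 to 167 TPM. This was 11.1-fold by means and 3.34 on the log2 scale (SE 0.70, limma adjusted p = 0.0109). It was 1 of 10 members called, where 6.15% of entries were. Dusp1 was at 1.07 (SE 0.34, limma adjusted p = 0.073), Egr1 at 1.26 (SE 0.47, adjusted p = 0.13) and Fos at -0.16 (SE 0.32, adjusted p = 0.82). Every APOE_H library was above every APOE_L library for Jund, Egr1, Ier2, Dusp1 and Atf3, 5 of 10 against 20.1% of entries. The median of the 10 was 1.07 and that of all entries 0.54. Choroid plexus, astrocyte, neutrophil and microglia marker sums (30739 to 31236 TPM in APOE_L, 38445 to 53283 in APOE_H) were all higher in APOE_H without overlap. So were neuron marker sums and endothelial marker sums (7.58 to 108 TPM in APOE_L, 134 to 284 in APOE_H), while oligodendrocyte sums overlapped. Scaled to the microglia markers, a setting chosen after seeing the data, Jund was at 2.87 (limma adjusted p = 0.0455). Without APOE_H library 1 Jund was at 3.10 and just missed the threshold (limma adjusted p = 0.0501). APOE_H libraries had 12801 to 15452 entries at 1 TPM or more, against 10161 to 11237 in APOE_L. Assembled loci made up 2.20 to 3.17% of TPM in APOE_H and 10.6 to 11.3% in APOE_L. With the TPM of Ensembl entries alone Jund was at 3.22 (limma adjusted p = 0.0129). Beyond that setting, the part of these differences in the Jund result was not tested.

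**Figure D2:**
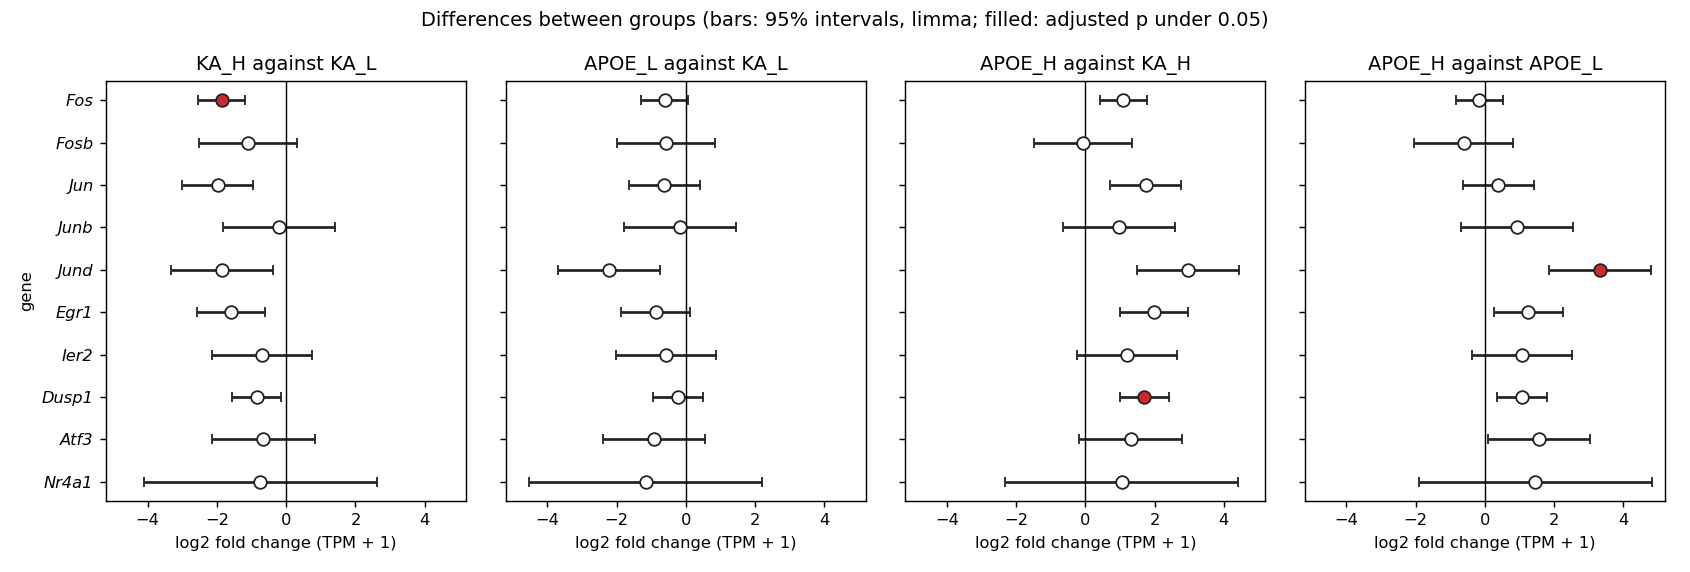
Log2 fold changes of the 10 immediate early genes for KA_H against KA_L, APOE_L against KA_L, APOE_H against KA_H and APOE_H against APOE_L, on the log2(TPM + 1) scale, with unadjusted 95% confidence intervals from limma; filled points passed the threshold after adjustment. Fos in KA_H against KA_L, Dusp1 in APOE_H against KA_H and Jund in APOE_H against APOE_L were the values that did.

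Averaged over KA and APOE, Fos was lower in H than in L by 1.01 on the log2 scale (log2 fold change -1.01, SE 0.23, limma adjusted p = 0.0101). It was 1 of 10 members called against 10.2% of entries, a share near that of all entries. The parts of the average were -1.86 within KA and -0.16 within APOE, and the test of their difference is given below. A two-sided exact permutation test of Fos, with letters exchanged within each condition over 400 arrangements, gave p = 0.04, where 0.005 is the smallest value possible. Leaving out single libraries moved that p to 0.07 at most, and 8 of the 12 such values were not under 0.05.

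The interaction asks whether the letter difference was the same in APOE as in KA. All 10 members had a positive interaction, the H against L difference being more positive in APOE, with a median of 2.07 against 0.38 over all entries. None passed after adjustment (0.0457% of entries did), so a difference between the conditions was not shown for any member. Without adjustment 6 members were under 0.05, against 8.32% of entries. Jund was the closest, at 5.21 (SE 0.99, limma adjusted p = 0.081), followed by Egr1 at 2.85 (SE 0.66, adjusted p = 0.15) and Dusp1 at 1.93 (SE 0.48, adjusted p = 0.22). Fos was at 1.70 (SE 0.45, limma adjusted p = 0.27). The 4 groups enter this value once each, so it rests on the same KA_L, KA_H, APOE_L and APOE_H libraries as the comparisons above.

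Among the 3 Jun genes, which compete for the same partners, the share of Jund varied between groups. It was 9.25 ± 1.20% of the summed TPM of Jun, Junb and Jund in CTRL_L, 10.3 ± 1.90% in KA_L and 9.90 ± 4.43% in KA_H (SD, n = 3). Jund was 3.58 ± 1.68% in APOE_L and 21.9 ± 5.03% in APOE_H. The APOE_H libraries (17.7 to 27.5%) were above, and the APOE_L libraries (2.37 to 5.50%) below, all others. Jun remained the largest of the 3 in each group, at 69.1% in APOE_H and 73.7 to 88.2% elsewhere. The ratio of Fos to Jun in TPM was 3.75 ± 0.459 in CTRL_L, 3.55 ± 0.688 in KA_L, 4.07 ± 1.88 in KA_H, 3.63 ± 0.948 in APOE_L and 2.49 ± 0.706 in APOE_H. Both transcripts were low together in KA_H, and the ratio there overlapped with that of every other group. These shares are a description with no test.

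**Figure D3:**
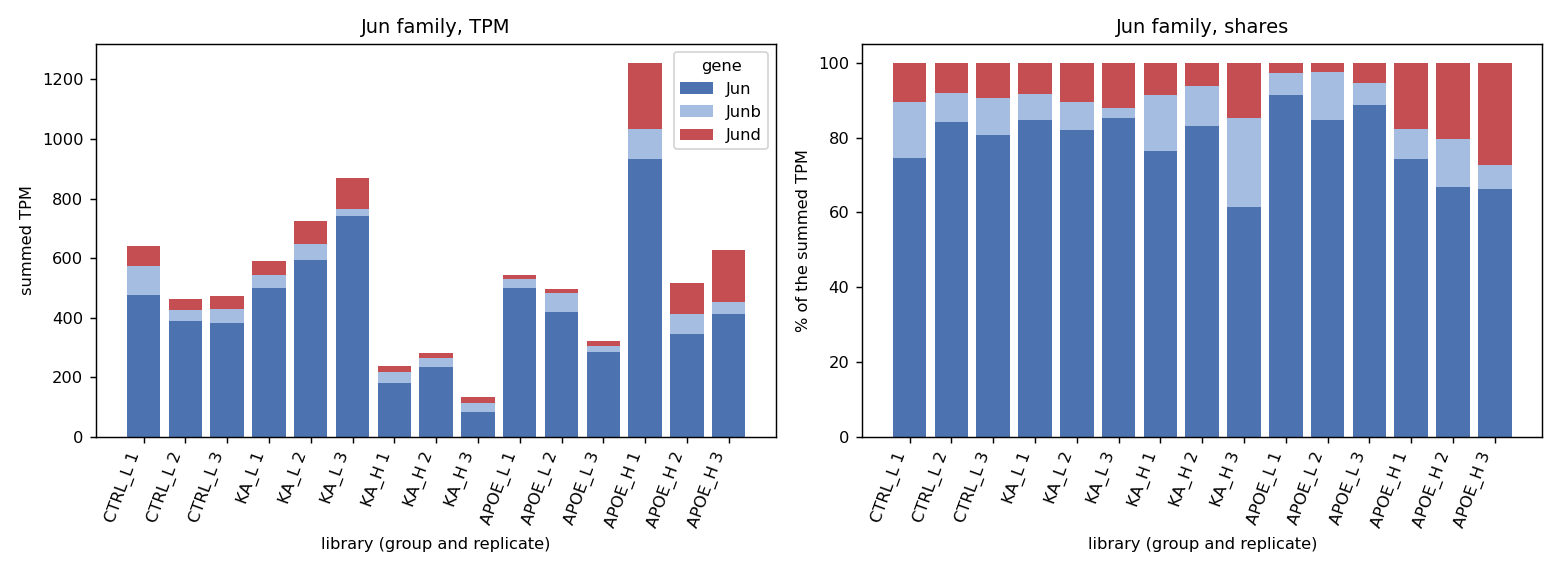
Make-up of the Jun family in each of the 15 libraries, as the summed TPM of Jun, Junb and Jund (left) and as each gene's share of that sum (right). By group mean, Jund made up 3.58% in APOE_L and 21.9% in APOE_H, against 9.25 to 10.3% in the other groups.

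Over the 15 libraries, most members varied together. Pearson correlations of log2(TPM + 1) for the 45 pairs ran from -0.36 to 0.87 with a median of 0.46, and 21 pairs were above 0.5. The closest pairs were Fos with Jun and Egr1 with Dusp1 (both 0.87), and Jun with Egr1 (0.81). Fosb and Nr4a1 stood apart, at -0.36 with each other and with all other pairs at 0.51 or less. These are descriptions over libraries that share 5 groups, a composition that differed between them, and a fixed total.

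**Figure D4:**
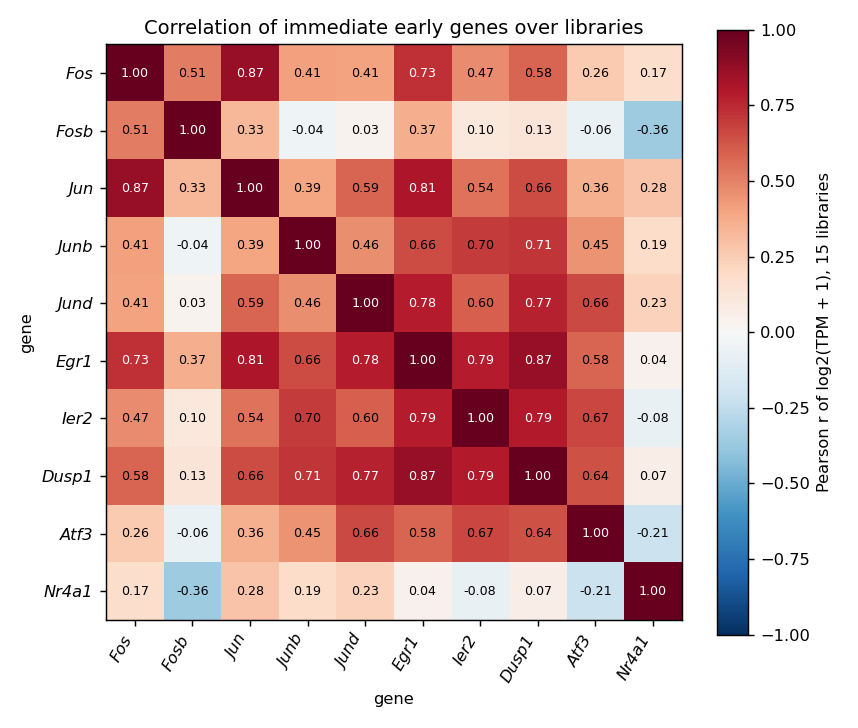
Pearson correlation of log2(TPM + 1) between the 10 immediate early genes over 15 libraries. Fos with Jun and Egr1 with Dusp1 are the highest pairs at 0.87, and Nr4a1 has no correlation above 0.28.

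Among 10703 tested genes with a symbol and a mean of at least 5 TPM, the 6 most like Fos over the 15 libraries were Qk (r = 0.92), Jun (0.87), Mef2c (0.86), Txnip (0.86), Ggt5 (0.83) and Pja2 (0.83). Qk encodes an RNA-binding protein and was 263 ± 48.2 TPM in KA_L and 75.9 ± 42.8 TPM in KA_H. Mef2c, which encodes a transcription factor of neurons and microglia, was 302 ± 87.8 TPM in KA_L and 90.3 ± 31.3 TPM in KA_H. The 6 most like the mean of the standardised members were Egr1 (0.96), Pmepa1 (0.91), Dusp1 (0.90), Csf1r (0.89), Btg2 (0.88) and Fgd2 (0.88). Egr1 and Dusp1 are part of that mean, which raises their correlation with it. Btg2 is itself an early response gene. Csf1r, the receptor for colony stimulating factor 1 on which microglia depend, was 508 ± 198 TPM in KA_L, 251 ± 40.7 TPM in KA_H and 819 ± 339 TPM in APOE_H.

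Of 37 other immediate early and primary response genes, 28 were tested. Between KA_L and CTRL_L Nfkbiz, which encodes an inducible IκB protein of the inflammatory response, was the only one called (1 of 28, against 0.571% of entries). It rose from 77.3, 29.5 and 91.3 TPM in CTRL_L to levels of 567, 407 and 301 TPM in KA_L, a log2 fold change of 2.77 (SE 0.59, limma adjusted p = 0.0444). The median of the 28 there was 0.69, against 0 over all entries. None of the 28 passed in KA_H against KA_L (median -0.79), APOE_H against KA_H (0.42) or APOE_H against APOE_L (0.65). Averaged over KA and APOE, Nfkbiz (-1.96, SE 0.41, limma adjusted p = 0.00717) and the Krüppel-like factor Klf4 (-1.82, SE 0.50, adjusted p = 0.028) were lower in H. The 3 genes called there, of 28, are a share near the 10.2% of all entries. Bhlhe40, a circadian and stress-induced repressor, was higher in H, at 13.3 ± 12.2 TPM in KA_H and 17.6 ± 15.7 TPM in APOE_H. It was at most 0.76 TPM in KA_L and APOE_L libraries, and 2 of the 6 H libraries were below 1 TPM.

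The activity-regulated genes of neurons were mostly unmeasured, with 3 of 14 tested. Nrn1, which encodes a secreted neuritin, passed for H against L averaged (limma adjusted p = 0.0421), as 1 of 3 against 10.2% of entries. It was listed at 0 in all KA_L and APOE_L libraries and lay at 24.3, 4.86 and 1.85 TPM in KA_H and 11.6, 22.2 and 23.4 TPM in APOE_H. In CTRL_L it was listed at 0 in library 1 and was 101 and 116 TPM in libraries 2 and 3, which are also the 2 untreated libraries with high choroid plexus sums.

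Of 14 other zipper partners, 12 were tested and Fosl1 was listed at 0 in all libraries. Maf, a large MAF factor of macrophages, fell between APOE_L and APOE_H from 409 ± 85.8 to 54.7 ± 37.8 TPM, a log2 fold change of -3.20 (SE 0.59, limma adjusted p = 0.00629). It was also lower in H over both conditions, by -2.52 (SE 0.42, limma adjusted p = 0.00145). In both comparisons Maf was the only 1 of the 12 called, a share near the 6.15% and 10.2% of all entries. The 12 had a median of 1.27 in APOE_H against APOE_L, opposite in sign to Maf.

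Upstream of the members, 23 of 25 kinases and transcription factors were tested, and 2 passed, both between APOE_L and APOE_H, a share near the 6.15% of all entries called there. Map2k2, a MAP kinase kinase, rose from 4.53 ± 5.51 to 90.2 ± 18.5 TPM (4.57, SE 1.22, limma adjusted p = 0.0352). Mrtfa, a coactivator of serum response factor, fell from 209 ± 94.9 to 23.1 ± 7.99 TPM (-3.08, SE 0.87, limma adjusted p = 0.0444). The list's median in that comparison was 0.38.

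Of 17 MAP kinase phosphatases and feedback inhibitors, 12 were tested. Dusp14 was higher in H, in APOE (limma adjusted p = 0.0392) and averaged (0.00627). In both comparisons Dusp14 was the only 1 of the 12 called, a share near the 6.15% and 10.2% of all entries. It was listed at 0 in all KA_L and APOE_L libraries and was 43.2, 11.3 and 16.5 TPM in KA_H and 18.3, 27.9 and 57.1 TPM in APOE_H. In CTRL_L it was listed at 0 in library 1 and was 61.8 and 48.2 TPM in libraries 2 and 3, the pattern of Nrn1. Among 9 co-repressors and turnover factors, Zfp36l2, which encodes a protein that promotes mRNA decay, was lower in H averaged, by -1.97 (SE 0.57, limma adjusted p = 0.0366), and none passed in the other comparisons. The 1 called of 9 is a share near the 10.2% of all entries called in H against L averaged.

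Heat shock genes, constitutive ones included, were 14, with 13 tested. Hspa8, the constitutive HSP70, rose between KA_H and APOE_H from 341 ± 89.6 to 1148 ± 19.8 TPM (1.78, SE 0.38, limma adjusted p = 0.0439). It was the only 1 of the 13 called there, against 0.531% of entries. Between APOE_L and APOE_H 4 of the 13 rose, where 6.15% of all entries were called in either direction. They were genes of the HSP90 chaperones, Hspa8 and the chaperone of the endoplasmic reticulum Hspa5, with log2 fold changes of 2.98 for Hsp90ab1 (limma adjusted p = 0.0135), 2.05 for Hspa8 (0.00629), 2.02 for Hspa5 (0.00915) and 1.64 for Hsp90aa1 (0.0288). The median of the 13 was 2.02 against 0.54 over all entries. The other 9 were not called. Hspa1a was at most 6.93 TPM and listed at 0 in 10 libraries, and Hspa1b, which was not tested, was at most 0.25 TPM. Dnajb1 was 38.9 ± 1.68 TPM in APOE_L and 62.4 ± 18.6 TPM in APOE_H, but 188 ± 77.7 TPM in CTRL_L. No heat shock gene passed in KA_H against KA_L (median -0.11) or in KA_L against CTRL_L (median -0.63).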

How the data were processed

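RNA was extracted with Trizol and made into TruSeq libraries, per the labels' protocols. The values deposited by the authors are TPM, each library summing to the same total. STAR and the build GRCh38, a human assembly, are named in the submitters' processing notes, while the identifiers are mouse Ensembl genes. The quantifier, annotation and strand setting are not given in the sources used here. Of 65964 entries, 10548 were assembled loci without a gene name, whose overlap with named genes was not examined. Symbols came from GENCODE M21. TPM keeps no sequencing depth, so no counting interval is given. Entries that reached 1 TPM in 3 or more libraries were tested with limma 3.58.1 (R 4.3.3, trend) on log2(TPM + 1), with 1 mean per group over all 15 libraries and Benjamini-Hochberg adjustment at 0.05 in each of 9 comparisons. The pseudocount understates changes of low genes. The members, lists and tests were chosen with earlier results of these data known. Named were all members, up to 4 called genes per list and comparison, list genes listed at 0 throughout, and the 6 genes most correlated with Fos and with the members' mean. Alternatives were pseudocounts, filters, scalings, fits and leaving out libraries.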

Additional observations from a re-analysis of the deposited data

How the results depend on the processing

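Over 26 alternatives per member and comparison (2340 values), no called value changed sign, 2308 kept their side of the threshold, 19 lost it and 13 gained it. For 2 compared groups, leaving out a library of another group could move only the SE and adjusted p, not the value. A further 62 changes of sign were all in uncalled values. For KA_H against KA_L, 2 members (Fos and Jun) were called with a pseudocount of 0.1, a filter of 5 TPM or the Ensembl entries alone, 0 with no filter on low values, without the mean-variance trend or with the groups fitted alone, 4 with scaling to microglia markers (chosen after seeing the data), and 0 to 2 when single libraries were left out (0 without KA_H replicate 3, 2 without CTRL_L replicate 1). For APOE_H against KA_H, 2 were called with a pseudocount of 5, 0 with no filter, upper-quartile scaling, quantile normalisation, microglia scaling, no trend or the groups alone, and 0 to 1 without single libraries. KA_H against CTRL_L gave 1 (Fos) with a pseudocount of 0.1 or quantile normalisation. APOE_H against APOE_L gave 0 to 2 without single libraries (0 without APOE_H replicate 1, 2 without CTRL_L replicate 1). H against L averaged gave 0 with no filter or no trend and 2 with microglia scaling. The interaction gave 1 (Jund, 5.21) with no filter. The permuted Fos difference was -1.18 to -0.86 without single libraries. The cause was not tested in any of these cases.

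The replicate block left 1 member called in KA_H against KA_L (Fos, -1.86) and changed no other count of members. Whether replicate numbers pair the libraries was not settled. The deviations of the 30 same-number pairs correlated between -0.0263 and 0.0365 (median 0.0047), with 0 above 0.1. Those of the 60 other-number pairs correlated between -0.0459 and 0.0222 (median -0.00076). These correlations were weak, but 12 of 15 libraries correlated best with their own number. Depth is unknown, so low values such as those of Nr4a1 have no counting error attached.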

Other observations

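Several early response genes that were near 0 in most libraries had high values in 1 or 2 libraries. Of the 10 members and 37 other early genes, 6 had a highest library of at least 50 TPM and a median under 5 TPM, a rule chosen after the values were seen. The share of all entries that meet this rule was not counted. Whether such peaks are particular to early genes is therefore not known. KA_L library 3 had the fewest entries at 1 TPM or more of the 15 libraries (9931). Nr4a2 (64.8 TPM), Nr4a3 (78.1 TPM), Homer1 (167 TPM) and the salt-inducible kinase Sik1 (93.7 TPM) all peaked in KA_L library 3, the library that also held the highest Fosb. Nr4a1 (68.9 TPM) and Csrnp1 (147 TPM) peaked in KA_L library 1. The next highest library was at 3.84 TPM for Nr4a3, 14.2 TPM for Nr4a2, 16.7 TPM for Sik1, 18.7 TPM for Csrnp1, 41.2 TPM for Homer1 (KA_L library 2) and 46.2 TPM for Nr4a1 (APOE_H library 1). Nr4a2 was listed at 0 in 8 libraries and Nr4a3 in 10.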
